A study of Mus musculus with 11 samples.

Results

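The genes described here oxidise, excise or bind modified cytosine in DNA: the TET dioxygenase genes Tet1, Tet2 and Tet3, the thymine DNA glycosylase gene Tdg, and the methyl-CpG-binding domain genes Mbd1, Mbd2, Mbd3 and Mbd4. They were chosen by name, 8 of the 25239 genes in the count table, and 7 of them had reads. Their messenger RNA was measured in 3 libraries of J1 cells, a line of mouse embryonic stem cells, labelled TKO_602, TKO_FL and TKO, each at day 0 and each from 1 library. The series concerns mutants of DNA methyltransferases, the labels of other samples spell TKO as DNMT TKO, and the design text writes the first 2 genotypes as TKO with FL or a number added. The labels do not say what those tags stand for or how many clones each line came from. All 3 genotypes carry TKO in their names. By name alone, the mutations that TKO stands for are also in the background that TKO_602 and TKO_FL are set against. The Dnmt1 values given below differ between these lines. The cells grew on mitotically inactivated mouse fibroblast feeders with serum and LIF, and polyadenylated RNA was sequenced. The series holds 11 samples, and its 8 immunoprecipitations of methylated and hydroxymethylated DNA were not analysed here.

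TET proteins oxidise 5-methylcytosine stepwise to 5-hydroxymethylcytosine, 5-formylcytosine and 5-carboxylcytosine, using 2-oxoglutarate, iron and oxygen. TDG cuts the formyl and carboxyl forms out of DNA, and base excision repair puts an unmodified cytosine in their place. The proteins encoded by Mbd1, Mbd2 and Mbd4 bind methylated CpG, whereas mouse MBD3 binds it poorly and, like MBD2, is a subunit of the NuRD chromatin remodelling and deacetylase complex. Mouse embryonic stem cells are known for high Tet1 and Tet2 and low Tet3.

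The genotypes bear on DNA methylation, so the CpG content of the members' promoters is shown first. RefSeq windows of GRCm38.p6, from 250 bases before to 50 after a gene's start, matched 6 of the 8 members by symbol. The windows of the TET genes and of Mbd3, the member with the most reads per length, follow 5′ to 3′ on the gene's strand, with every CpG in capitals. They lie at chr10:62887275-62887574, chr3:133544341-133544640, chr6:83441629-83441928 and chr10:80399482-80399781 for Tet1, Tet2, Tet3 and Mbd3, all on the minus strand.
Tet1: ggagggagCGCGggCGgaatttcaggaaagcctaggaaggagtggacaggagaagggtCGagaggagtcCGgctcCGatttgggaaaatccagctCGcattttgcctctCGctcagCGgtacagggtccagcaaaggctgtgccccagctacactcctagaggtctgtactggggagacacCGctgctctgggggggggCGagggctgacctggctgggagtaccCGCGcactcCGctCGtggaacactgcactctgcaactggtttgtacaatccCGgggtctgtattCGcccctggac
Tet2: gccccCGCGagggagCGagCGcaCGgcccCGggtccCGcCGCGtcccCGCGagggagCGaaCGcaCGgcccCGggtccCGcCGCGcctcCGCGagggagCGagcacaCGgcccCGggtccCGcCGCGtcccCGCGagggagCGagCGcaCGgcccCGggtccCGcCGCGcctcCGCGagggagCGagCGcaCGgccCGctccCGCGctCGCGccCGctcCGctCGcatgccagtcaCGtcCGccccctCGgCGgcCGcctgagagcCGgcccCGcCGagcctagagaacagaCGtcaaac
Tet3: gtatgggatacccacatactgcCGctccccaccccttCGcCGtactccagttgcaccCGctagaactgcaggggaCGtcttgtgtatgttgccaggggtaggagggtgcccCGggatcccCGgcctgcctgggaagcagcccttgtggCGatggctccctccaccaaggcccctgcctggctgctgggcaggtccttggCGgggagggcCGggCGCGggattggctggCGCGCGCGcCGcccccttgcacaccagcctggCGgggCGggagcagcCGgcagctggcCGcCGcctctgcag
Mbd3: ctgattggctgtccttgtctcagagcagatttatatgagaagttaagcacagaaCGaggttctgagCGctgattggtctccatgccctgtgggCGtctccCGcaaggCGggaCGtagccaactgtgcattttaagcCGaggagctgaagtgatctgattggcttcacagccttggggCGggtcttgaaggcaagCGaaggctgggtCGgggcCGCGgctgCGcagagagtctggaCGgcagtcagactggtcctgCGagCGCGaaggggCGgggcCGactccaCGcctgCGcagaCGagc

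All 6 matched windows held more CpG than the median of 7 over 32841 RefSeq windows of this length. The Tet2 window held 57, more than 99.8% of all windows, and its GC content was 81.3%, against a median of 52.7%. The sequence repeats itself: 58 of its 20-base words occurred more than once and the most frequent 4 times, while 2.92% of all windows, and none of the other 5 members', held any repeated word of that length. The Tet1 window had the fewest CpG of the 6, with 17. Its observed to expected CpG ratio was 0.61, and that of Tet3 was lower, at 0.58, against a median of 0.38. Tet3 and Mbd3 had 22 CpG each, Mbd4 25 and Tdg 26. The Tet3 window lies inside the span of Tet3 in the count table (mm10 chromosome 6, 83362374 to 83456392), so it belongs to a start downstream of the first annotated one. The letters CCAAT, searched on both strands, occurred 3 times in the Mbd3 window, 2 times in Mbd4 and 1 time each in Tet3 and Tdg, and were not found in Tet1 and Tet2; 37.4% of all windows hold them. GGGCGG, which contains a CpG, was found in every matched window but that of Tdg, and in 35.7% of all windows. Methylation of these promoters was not analysed here.

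The libraries held 43158441 reads on genes in TKO_602, 19573689 in TKO_FL and 21133660 in TKO. CPM are read counts scaled to a common library size with TMM factors, and RPKM are those CPM per kilobase of exon, so that genes of different lengths can be compared. With 1 library per genotype there is no spread between replicates, no p-value, and no difference below has a replicate check. The intervals are exact 95% intervals in which 2 mates count as 1 observation, and they cover counting error only. Dnmt1, the maintenance methyltransferase gene, had 2444 CPM in TKO_602, 3364 in TKO_FL and 159 in TKO. Of the other Dnmt genes, Dnmt3b (11.9, 34 and 71.7 CPM) was past 2-fold in every comparison. Dnmt3l (226, 408 and 658 CPM) was past 2-fold only in TKO_602 against TKO. TKO_602 was sequenced most deeply and, per the file headers, its alignment was stored apart from the others, so in its comparisons a batch and the genotype cannot be told apart. All 10 stem cell markers reached 1 CPM in each library, and their sum was lowest in TKO (7619 CPM in TKO_602, 7509 in TKO_FL and 6170 in TKO). Dppa5a alone had 2441, 1632 and 1144 CPM, so the difference in the sum between TKO_602 and TKO mainly follows that gene. In TKO_FL against TKO 8 of the 10 markers were higher, none of them 2-fold. In TKO_602 against TKO 7 of 10 were higher, 2 of them at least 2-fold, and the others were lower. Over all genes, 3.24% and 11% were at least 2-fold higher in these comparisons. The part of the stem cell markers in the members' differences was not tested. In bulk RNA, fewer cells of a type and less RNA per cell cannot be told apart.

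The order of the members by RPKM was the same in all 3 libraries: Mbd3, Tet1, Tet2, Mbd2, Mbd4, Mbd1 and Tet3. Mbd2 and Mbd4 were the only neighbours in this order whose counting intervals overlapped, and they did so in each library. Mbd3 lay above 94.1% to 95.7% of genes with at least 1 CPM, and Tet3 above 18.6% to 21.6%.

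**Figure D1:**
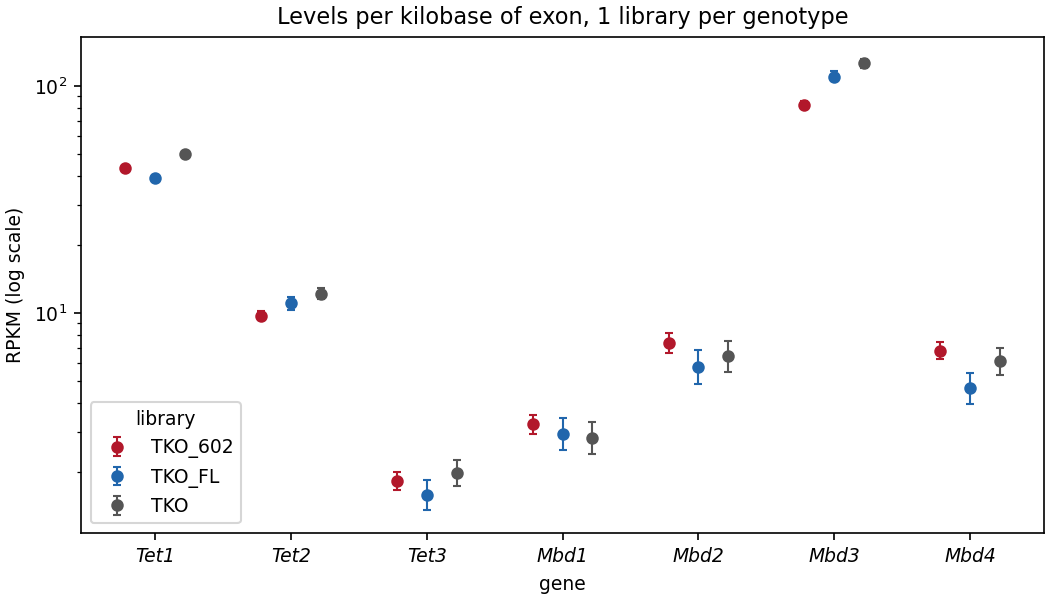
RPKM on a log axis for the 7 members with reads, 1 point per library (TKO_602, TKO_FL, TKO from left to right); bars are exact 95% counting intervals. Mbd3 lies between 82.7 and 126 RPKM and Tet3 between 1.58 and 1.97, while the points of Mbd2 and Mbd4 lie close together.

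Tet1, the main TET gene of these cells (mm10 chromosome 10, 62804570 to 62887324, minus strand, 13 exons after merging), had 622 CPM in TKO_602, 565 in TKO_FL and 716 in TKO. Per length it stood at 43.3, 39.4 and 49.9 RPKM, with counting intervals of 42.6 to 44, 38.3 to 40.4 and 48.7 to 51. The TKO library was the highest and TKO_FL the lowest, and no pair of intervals overlapped. Its log2 fold, computed from CPM plus 1, was -0.34 in TKO_FL against TKO (interval -0.39 to -0.29) and -0.20 in TKO_602 against TKO (-0.24 to -0.16). Against TKO_FL, TKO_602 was at 0.14 (0.09 to 0.18).

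Tet2, whose product lacks the DNA-binding CXXC domain of the others (chromosome 3, 133463677 to 133544390, minus strand, 12 exons), had 89.5 CPM in TKO_602, 101 in TKO_FL and 112 in TKO. TKO_602 was the lowest and TKO the highest, with log2 folds of -0.32 (interval -0.42 to -0.21) for TKO_602 against TKO, -0.14 (-0.27 to -0.02) for TKO_FL against TKO, and -0.17 (-0.28 to -0.06) for TKO_602 against TKO_FL. Tet3, known for oxidising the paternal genome in the zygote, had the lowest RPKM of all members: 1.82 in TKO_602, 1.58 in TKO_FL and 1.97 in TKO, from 960, 356 and 479 reads. Its log2 fold against TKO was -0.31 in TKO_FL (interval -0.58 to -0.03) and -0.11 in TKO_602 (-0.32 to 0.11), where the interval spans 0.

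The make-up of the TET family differed by a few percentage points between libraries. Tet1 made up 78.9% of the summed TET RPKM in TKO_602, 75.8% in TKO_FL and 77.9% in TKO. Tet2 made up 17.7%, 21.1% and 19% in that order, and Tet3 3.33%, 3.04% and 3.08%. A ratio of genes within a library does not depend on how libraries are scaled to each other. By that measure Tet1 stood at 4.45 times Tet2 in TKO_602 (log2 ratio 2.15, interval 2.09 to 2.22), 3.59 times in TKO_FL (1.84, 1.74 to 1.94) and 4.11 times in TKO (2.04, 1.95 to 2.13). The TKO_FL ratio lay below the other 2, and those 2 overlapped in their intervals. The log2 ratio of Tet1 to Tet3 was 4.57, 4.64 and 4.66 in TKO_602, TKO_FL and TKO, with overlapping intervals.

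Tdg, which excises formylcytosine and carboxylcytosine, had 0 reads in all 3 libraries, and 0 in both libraries of the authors' TPM table. No level of Tdg can be drawn from this 0. In the annotation behind the count table, another entry named Tdg-ps2 was placed on the same strand over Tdg (chromosome 10, 82629838 to 82650799), and its 2898 exonic bases all coincide with Tdg exons. Glt8d2, on the opposite strand, covers a further 367 bases of the last exon. Together they cover 92.7% of the 3523 exonic bases of Tdg and leave 258, in stretches of 4, 99 and 155 bases. The counting command set no option for reads that touch more than 1 gene, and such reads are left out by default. Tdg-ps2 had 0 reads in each library as well. RefSeq on GRCm38.p6 lists Tdg-ps2 as a transcribed pseudogene elsewhere on chromosome 10, from 42052558 to 42055453, and whether reads that map to both copies are also missing was not tested. A count of 0 allows up to 0.134 CPM in TKO_602, 0.312 in TKO_FL and 0.29 in TKO (6 reads), but only for reads that could be assigned. Over the whole table, 672 of 692 genes with at least 90% of their exonic bases shared had 0 reads in all 3 libraries (97.1%), against 24.9% of the genes that share no exonic base. No exonic base of the other 7 members was shared.

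**Figure D2:**
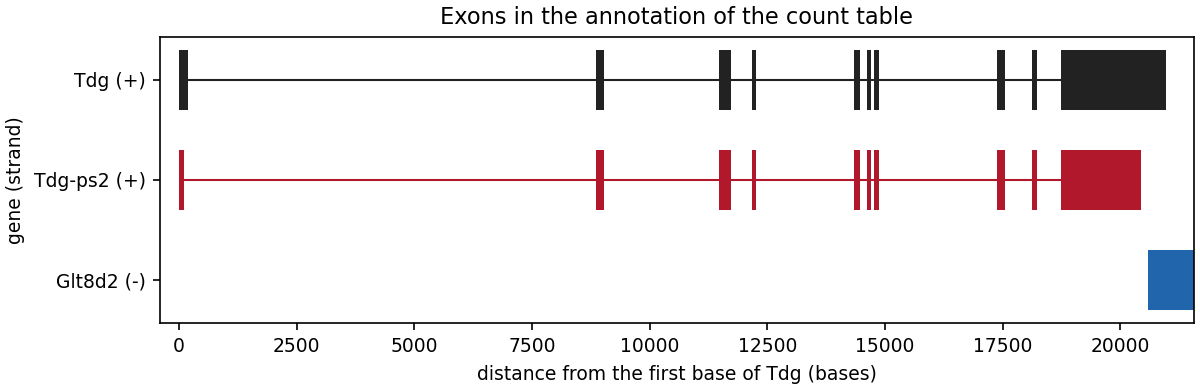
Exons (boxes) of Tdg, Tdg-ps2 and the 3′ end of Glt8d2 as placed by the annotation of the count table, by distance in bases from the first base of Tdg. Every Tdg-ps2 exon sits on a Tdg exon, and Glt8d2 covers the end of the last one, so 258 of 3523 bases belong to Tdg alone.

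Mbd3, the NuRD subunit (chromosome 10, 80392539 to 80399531, minus strand, 7 exons), had the largest difference from TKO among the members. It had 136 CPM in TKO_602, 181 in TKO_FL and 207 in TKO, or 82.7, 110 and 126 RPKM. TKO_602 was the lowest, and no pair of the RPKM intervals (79.7 to 85.6, 105 to 116 and 120 to 131) overlapped. The log2 fold was -0.60 in TKO_602 against TKO (interval -0.68 to -0.52), -0.19 in TKO_FL against TKO (-0.28 to -0.10) and -0.41 in TKO_602 against TKO_FL (-0.50 to -0.33).

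Mbd2, which takes the place of Mbd3 in a separate form of NuRD, did not follow it in the comparisons of TKO_602. It had 17.3 CPM in TKO_602, 13.6 in TKO_FL and 15.2 in TKO, from 774, 262 and 314 reads. The log2 fold was 0.18 in TKO_602 against TKO (interval -0.08 to 0.44), -0.14 in TKO_FL against TKO (-0.47 to 0.18) and 0.32 in TKO_602 against TKO_FL (0.05 to 0.60), so only the last interval lay apart from 0. Within a library Mbd2 stood at 0.0889 of Mbd3 per length in TKO_602, 0.0526 in TKO_FL and 0.0513 in TKO. The log2 ratio in TKO_602, -3.49 (interval -3.65 to -3.34), lay above those of TKO_FL, -4.25 (-4.52 to -3.99), and TKO, -4.28 (-4.53 to -4.05), and the last 2 overlapped.

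Mbd4 encodes a glycosylase that removes thymine and uracil opposite guanine at CpG (chromosome 6, 115840697 to 115853341, minus strand, 8 exons). It had 24.4 CPM in TKO_602, 16.7 in TKO_FL and 21.9 in TKO. TKO_FL was the lowest, at a log2 fold of -0.37 relative to TKO (interval -0.65 to -0.09), while TKO_602 was at 0.15 against TKO (-0.07 to 0.37) and at 0.52 against TKO_FL (0.28 to 0.77). Mbd1, whose product binds ATF7IP, a partner of the methyltransferase SETDB1, had 18 CPM in TKO_602, 16.3 in TKO_FL and 15.7 in TKO. Its interval spanned 0 in every comparison, with log2 folds of 0.18, 0.05 and 0.13 for TKO_602 against TKO, TKO_FL against TKO and TKO_602 against TKO_FL. Mbd1 and Mbd2 both lie on chromosome 18.

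Among the 21 pairs of the 7 members, the within-library ratio with the widest range was that of Mbd3 to Mbd4, at log2 ratios of 3.60 in TKO_602, 4.56 in TKO_FL and 4.36 in TKO. Mbd3 made up 82.6% of the summed RPKM of the 4 MBD genes in TKO_602, 89.2% in TKO_FL and 89.1% in TKO.

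**Figure D3:**
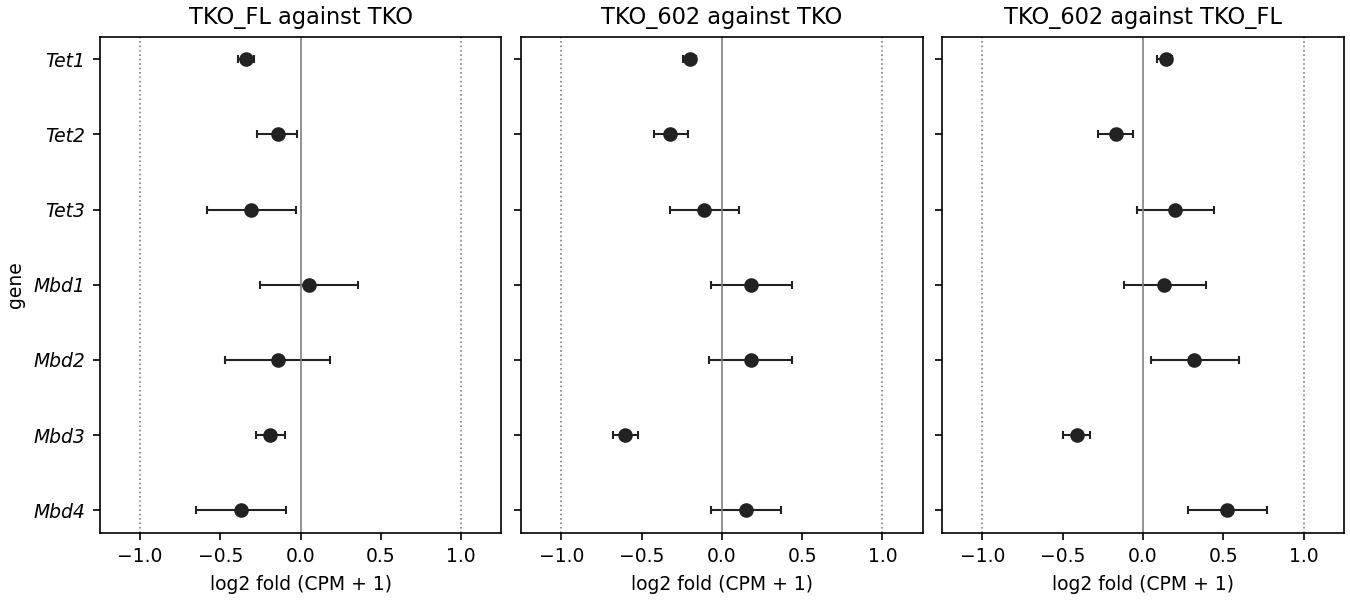
Log2 fold of CPM + 1 for the 7 members in each comparison of 2 libraries; bars are exact 95% counting intervals and dotted lines mark 2-fold. Mbd3 lies lowest in both comparisons of TKO_602, at -0.60 and -0.41, and every interval stays inside the dotted lines.

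The members were then set beside all genes. None of the 7 was at least 2-fold apart in any comparison in either direction. Over all genes, 5.74% of 13563 were in TKO_FL against TKO (3.24% higher and 2.5% lower). The share was 19% of 13748 in TKO_602 against TKO (11% higher and 8.06% lower), and 11.6% of 13683 in TKO_602 against TKO_FL (6.75% higher and 4.87% lower). At such shares a count of 0 among 7 genes does not set the members apart from the rest. In TKO_FL against TKO, 6 of 7 members lay below 0 and the median was -0.19, against a median of 0 over all genes. In TKO_602 against TKO 4 of 7 lay below 0, with a median of -0.11 against 0.03, and in TKO_602 against TKO_FL 2 of 7 did, with a median of 0.14 against 0.03. These comparisons share libraries and are not independent of each other. The absolute log2 fold exceeded the median over all genes (0.27, 0.48 and 0.4 in the order above) for 3 members in the first comparison, Tet1, Tet3 and Mbd4, for Mbd3 alone in the second, and for Mbd3 and Mbd4 in the last.

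**Figure D4:**
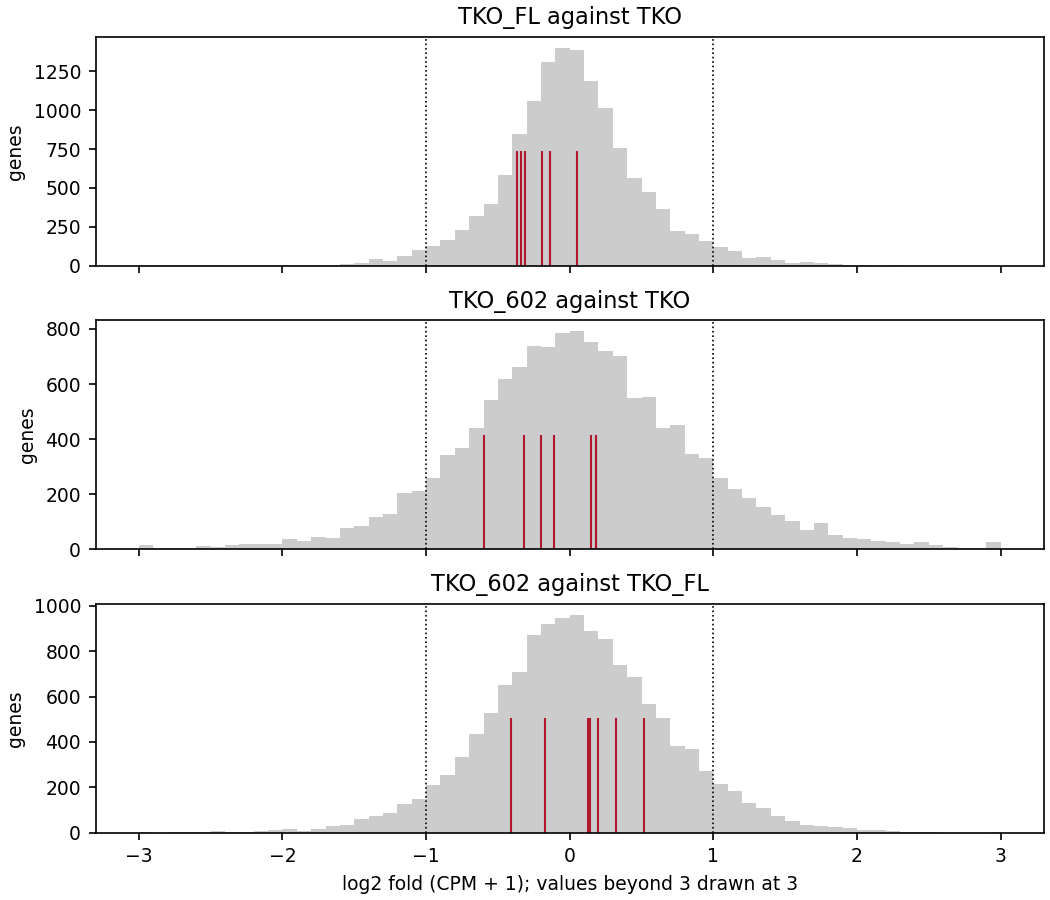
Number of genes by log2 fold of CPM + 1 (grey, bins of 0.1) in each comparison, with the 7 members as red lines and 2-fold as dotted lines. The red lines stay within -0.60 and 0.52, inside the bulk of each distribution.

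Markers of other cells differed more than the members did. Of 15 primitive endoderm markers that reached 1 CPM in TKO_FL or TKO, 14 were at least 2-fold lower in TKO_FL, and 11 of 15 in TKO_602 against TKO. Over all genes, 2.5% and 8.06% were at least 2-fold lower in these comparisons. The 17 primitive endoderm values summed to 1420 CPM in TKO_602, 911 in TKO_FL and 3458 in TKO, and Ttr and Afp were at 0 in TKO_FL. Most of each sum came from the laminin and collagen IV genes Lama1, Lamb1, Lamc1, Col4a1 and Col4a2. Lamc1 alone had 509, 412 and 953 CPM, so the sum mainly follows those genes. The 17 fibroblast feeder markers summed to 681, 434 and 761 CPM, with none at 0. Col1a1, Col1a2 and Col5a1 were the largest, with Col1a1 at 172, 79 and 163 CPM, so this sum leans on those genes. In TKO_FL against TKO, 6 of 16 measured feeder markers were at least 2-fold lower, beside 2.5% of all genes. In TKO_602 against TKO 5 of 16 were at least 2-fold lower and 1 at least 2-fold higher, beside 8.06% and 11% of all genes. Both sums were highest in TKO and lowest in TKO_FL, and among the members only Tet1 and Tet3 had that order. Tet2 and Mbd3 were lowest in TKO_602, while Mbd1, Mbd2 and Mbd4 were highest there. The part of these cells in the members' differences was not tested.

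The genes that work with the members were read as lists. Among 9 glycosylases of base excision repair other than Tdg and Mbd4, 3 were at least 2-fold higher in TKO_602 against TKO and none lower, with a median of 0.46, where 11% of all genes were higher. All 3 encode NEIL enzymes, which remove oxidised bases and can aid TDG. Neil2 had 14.1 CPM in TKO_602, 7.28 in TKO_FL and 1.5 in TKO, from 632, 140 and 31 reads. It was the only one of the 9 past 2-fold in TKO_FL against TKO (log2 fold 1.73, interval 1.16 to 2.25), where 5.74% of all genes were. Neil3 had 29, 13 and 7.53 CPM (log2 fold 1.81 in TKO_602 against TKO, interval 1.51 to 2.13) and Neil1 10.3, 6.29 and 3.81 CPM (1.23, 0.82 to 1.64). The order was TKO_602 above TKO_FL above TKO for each of the NEIL genes. In TKO_602 against TKO_FL, 2 of the 9 were at least 2-fold higher and none lower, where 6.75% of all genes were higher. They were Neil3 (1.10, 0.84 to 1.37) and Smug1, a uracil glycosylase gene (1.12, 0.84 to 1.41). Smug1 had 24.5, 10.7 and 16.3 CPM.

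Of 9 genes of the later repair steps, 1 was at least 2-fold lower in TKO_602 against TKO and none higher (median -0.21), where 8.06% of all genes were lower. Apex1, the endonuclease that cuts at the emptied site, had 79.1 CPM in TKO_602, 168 in TKO_FL and 221 in TKO (log2 fold -1.47 against TKO, interval -1.56 to -1.38). None of the 9 was 2-fold apart in TKO_FL against TKO, where 5.74% of all genes were. In TKO_602 against TKO_FL, Apex1 alone was at least 2-fold lower (-1.07, interval -1.17 to -0.98) and none was higher. Over all genes, 4.87% were lower there.

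Among 9 measured TET partners and regulators, 1 was at least 2-fold lower in TKO_602 against TKO, where 8.06% of all genes were. Lin28a, whose RNA-binding product has been reported to recruit TET1 to DNA, was the only one past 2-fold in any comparison. It had 200 CPM in TKO_602, 387 in TKO_FL and 503 in TKO (log2 fold -1.33 in TKO_602 against TKO, interval -1.39 to -1.27). Ogt, the sugar transferase bound by TET proteins, had 129, 151 and 153 CPM. Cxxc4, whose product binds TET2, was below 1 CPM in every library. None of the 17 genes of 2-oxoglutarate supply and removal passed 2-fold in any comparison. Over all genes, 5.74% passed in TKO_FL against TKO, 19% in TKO_602 against TKO and 11.6% in TKO_602 against TKO_FL. In TKO_602 against TKO the largest differences in this list were those of the isocitrate dehydrogenase genes Idh2 and Idh1, with Idh2 at 216, 166 and 113 CPM and Idh1 at 225, 173 and 143 CPM in TKO_602, TKO_FL and TKO.

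Of 14 NuRD genes other than Mbd2 and Mbd3, 1 was at least 2-fold higher and 1 lower in TKO_602 against TKO (median -0.12), and none passed in the other comparisons. That is no more than the 11% and 8.06% over all genes. Cdk2ap1, a small subunit, had 41.7 CPM in TKO_602, 78.9 in TKO_FL and 114 in TKO (log2 fold -1.42 in TKO_602 against TKO, interval -1.55 to -1.30), the same order as Mbd3. Hdac1, a catalytic deacetylase subunit, had 86.6, 148 and 164 CPM and stayed within 2-fold (-0.91). Chd5, an ATPase subunit known mainly from neurons and testis, stood the other way, with 26.7, 17.7 and 11.5 CPM (1.15, 0.88 to 1.42). The ATPase gene Chd4, the main one of stem cells, had 669, 637 and 894 CPM.

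Among 12 measured other methyl-CpG readers and MBD-domain genes, 1 was at least 2-fold higher and 1 lower in TKO_602 against TKO (median 0.48), near the 11% and 8.06% over all genes. Baz2b, a bromodomain gene with an MBD-like domain, had 50.7 CPM in TKO_602, 29 in TKO_FL and 7.97 in TKO, with log2 folds against TKO of 2.53 (interval 2.23 to 2.83) and 1.74 (1.41 to 2.08). It was the only one of the 12 past 2-fold in TKO_FL against TKO, where 5.74% of all genes were. Zfp57, which holds methylation at imprinted regions, had 77.7, 170 and 247 CPM (-1.66 in TKO_602 against TKO, -1.75 to -1.57). It was also at least 2-fold lower in TKO_602 against TKO_FL (-1.12, -1.22 to -1.02). Zbtb38 had 30.8, 12.8 and 21.2 CPM, past 2-fold only between TKO_602 and TKO_FL (1.20, 0.94 to 1.47). In that comparison 1 of the 12 was higher and 1 lower, beside 6.75% and 4.87% of all genes. Of the 3 partners of Mbd1 and Mbd4, none passed 2-fold in any comparison, where 5.74% to 19% of all genes did. Atf7ip2, a relative of Atf7ip, had 16.1 CPM in TKO_602, 21.5 in TKO_FL and 16.8 in TKO.

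Among 6 measured deaminase and Gadd45 genes, 2 were at least 2-fold higher and 1 lower in TKO_602 against TKO, beside 11% and 8.06% of all genes. Apobec1, a cytidine deaminase gene, had 18.5 CPM in TKO_602, 6.29 in TKO_FL and 6.13 in TKO, and its relative Apobec2 had 11.5, 4.06 and 3.52 CPM. Gadd45g had 4.57, 10.1 and 11.1 CPM. None of the 6 was 2-fold apart in TKO_FL against TKO, where 5.74% of all genes were. In TKO_602 against TKO_FL, Apobec1 (1.42, interval 1.08 to 1.78) and Apobec2 (1.30, 0.89 to 1.72) were at least 2-fold higher, beside 6.75% of all genes. None of the 6 was at least 2-fold lower there.

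**Figure D5:**
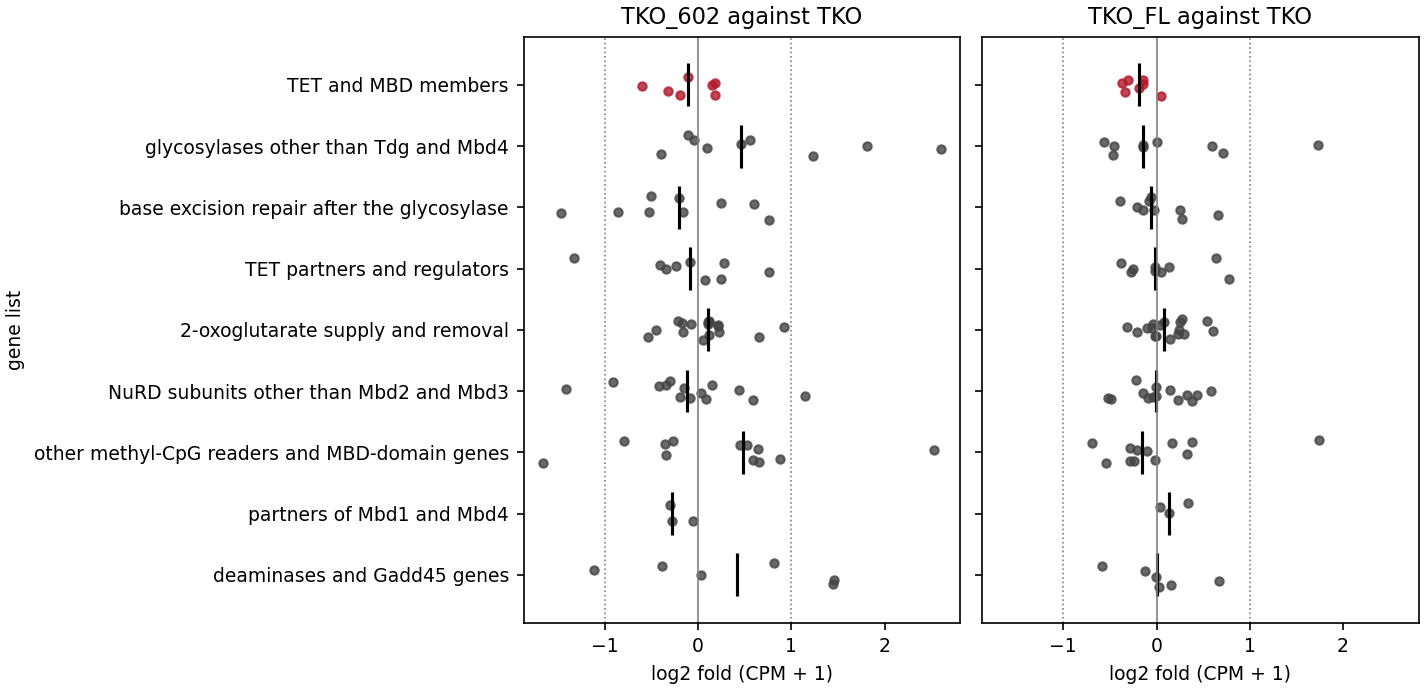
Log2 fold of CPM + 1 for the members (red) and for the genes of each list (grey). The lists of DNA methyltransferases and of cell type markers are not drawn. Each point is 1 gene that reached 1 CPM in either library compared. Black bars are medians and dotted lines mark 2-fold. In TKO_FL against TKO the points past 2-fold are Neil2 and Baz2b, while every member stays inside the dotted lines in both panels.

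The genes nearest to each member in their pair of log2 folds, TKO_FL against TKO and TKO_602 against TKO, were sought among 8302 genes with at least 10 CPM in every library. For Mbd3 they were Bfar, at 33 CPM in TKO_602, 44.9 in TKO_FL and 50.9 in TKO, and Ddx28, at 12.7, 17 and 19.6 CPM, at distances of 0.0120 and 0.0133 in log2. For Tet2 they were Syf2 and Cds2, while Ccdc25 was among those nearest to Tet1 and Elovl1 among those nearest to Tet3. For Mbd1 they were Tdgf1 and Micos10, for Mbd2 Sapcd2 and Decr2, and for Mbd4 Ctsc and Abhd2. Such likeness over 3 libraries is common: 198 genes lay within 0.1 of Mbd3, 260 of Tet2, 261 of Mbd1, 188 of Mbd2, 116 each of Tet1 and Tet3, and 64 of Mbd4.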

How the data were processed

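RNA-seq gene counts of 3 libraries, TKO_602, TKO_FL and TKO, were assigned to genotypes by title. Trim Galore, HISAT2, SAMtools, Subread, featureCounts and mm10 appear in the submitters' processing notes. Per the file headers, the deposited counts are reads per RefSeq gene of mm10, from featureCounts 2.0.6 in paired mode, with no option for strand, read pairs, reads on several genes or multiple mapping. Each mate was counted alone, and without strand, reads of antisense partners cannot be told apart. The authors deposited a second gene signal table, named TPM, whose columns sum to 10000000, and these values were divided by 10. Multiplied by length they gave whole fragments for 100% of values, 10084490 in TKO_FL and 10860312 in TKO. The sources used here do not say how that table was counted. The repeat table was not used, and 11 columns in each gene table match none of these samples and were not used.

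CPM used TMM factors (1.04 for TKO_602, 0.983 for TKO_FL, 0.98 for TKO), and edgeR 4.0.16 (R 4.3.3) gave the same factors to 5 decimals. The software was Python 3.11.15, pandas 2.3.3, numpy 2.4.6 and scipy 1.17.1. Folds are log2 of the ratio of CPM plus 1, for genes that reached 1 CPM in either library compared, and 2-fold was the threshold. Intervals are exact binomial (folds, ratios) or Poisson (levels), from reads divided by 2, and PCR duplicates are not removed by them. Shared exonic bases were computed from the exons in the count table, on either strand. Simulated counts with known changes were used to test the steps. Alternatives were library size only, DESeq2 1.42.0 size factors, upper-quartile factors, pseudocounts of 0.1 and 5, no filter, a CPM of at least 5, genes of at least 200 bases, and the authors' TPM.

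Named genes are the members, list genes past 2-fold in any comparison or else the 2 with the largest folds, and the 2 nearest genes per member, leaving out predicted and microRNA symbols. Some genes that this rule names are not reported here. Ogt, Cxxc4, Hdac1, Chd4, Setdb2, Mpg and Gadd45a fall outside that rule and were named after their values were seen. Members and lists were chosen with earlier results of these data known.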

Additional observations from a re-analysis of the deposited data

How the results depend on the processing

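Of 175 values of a member's log2 fold under the alternatives, 170 stayed within the interval given in the report and none changed sign. The other 5 were Tet1 in TKO_602 against TKO (-0.12 with library size only, -0.26 with upper-quartile factors), Tet1 in TKO_602 against TKO_FL (0.22 and 0.09), and Mbd3 in TKO_602 against TKO (-0.52 with library size only). The count of members past 2-fold was 0 under every alternative. The median over all genes in TKO_602 against TKO was 0.03 with TMM factors and 0.12 with library size only. The 42 within-library ratios of TKO_FL and TKO shifted by at most 0.05 in log2 when taken from the authors' TPM. The number of genes past 2-fold depended on the pseudocount: in TKO_FL against TKO it was 779, 1474 with 0.1 and 175 with 5; with 5 it was 1212 in place of 2614 in TKO_602 against TKO, and 618 in place of 1591 in TKO_602 against TKO_FL. A larger pseudocount shrinks the folds of low genes by construction. No paired analysis was possible because each genotype has 1 library. Depth limits Mbd1, Mbd2, Mbd4 and Tet3 most, which rest on 262 to 479 reads in TKO_FL and TKO.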

Other observations

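Overlapping annotation touches genes of the same pathways besides Tdg. Setdb2, an MBD-domain methyltransferase gene, shares 89.1% of its exonic bases with another gene and had 19 reads in TKO_602, 3 in TKO_FL and 2 in TKO. Mpg, a glycosylase gene, shares 42.4% and had 742, 312 and 373 reads, and Gadd45a shares 19.4% and had 676, 251 and 415 reads. How many reads were left out for these genes was not tested. Of all 25239 genes, 6413 had 0 reads in the 3 libraries.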
